A study of Mus musculus with 2 samples.

Results

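The genes described here are 10 transcription factors and early response genes of mouse retina: the Fos genes Fos, Fosb, Fosl1 and Fosl2, the Jun genes Jun, Junb and Jund, and Atf3, Egr1 and Ier2. They were taken by symbol, and all 10 were present among the 32285 features counted in both single-cell libraries. Retinas had been collected after an injection of the bacterial product lipopolysaccharide (LPS, 0.5 µg per eye) into the vitreous, and there was 1 library per group, each made from pooled retinas with n = 6 given per group. The knockout library came from GLAST-CreER; Atg5fl/fl mice that also received 4-hydroxy-tamoxifen. The control library came from Atg5fl/fl mice, which carry the same floxed alleles of the autophagy gene Atg5 without the Cre. Both groups received LPS, and no group without LPS was analysed here. GLAST-CreER is a Cre that 4-hydroxy-tamoxifen switches on and that is driven from the glutamate transporter gene Slc1a3, which Müller glia, the main glial cells of the retina, and astrocytes use. Genotype, Cre and drug came together in 1 library and cannot be told apart. The labels state no age, sex or delay after LPS.

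Proteins of the Fos and Jun families pair through leucine zippers into the dimer called AP-1, which binds DNA at the sequence TGANTCA. Jun proteins can pair with each other, Fos proteins need a Jun partner, and Atf3 pairs with Jun proteins too. Most of these genes are transcribed within minutes of a stimulus such as a cytokine, a growth factor or injury. In the retina they are known as early genes of the Müller glial response to damage. Enzymatic dissociation of a tissue into cells is also known to induce them, and its part in the levels below was not tested.

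The knockout library held 5229 cell barcodes and the control library 8690, with 50676223 and 43669961 unique molecular identifiers (UMIs, each marking 1 captured mRNA 3' end). The filter kept 4662 knockout and 8274 control cells, with medians of 6808 and 1396 UMIs per cell, and 15 barcodes occurred in both libraries. Cell types were rebuilt by clustering, and a cluster was called after a cell class (Müller glia-like, for instance) from its marker genes. Of the kept cells, 25.6% of the knockout library and 31.4% of the control library lay in clusters that stayed unnamed. The largest of these, 473 knockout and 2012 control cells, scored highest for rods but had lens crystallins among its top genes. Unnamed clusters of 106 and 80 cells scored highest for Müller glia without the lead required. The counts that follow cover named clusters only. Müller glia-like cells numbered 561 (12.03%) in the knockout library and 360 (4.35%) in the control library, and rod-like cells 472 (10.1%) and 3539 (42.8%). All 13 Müller markers were detected in the Müller glia-like cells of both libraries. Atg5 itself had 17.9 CPM (UMIs per 1000000 UMIs of the class) in knockout and 20.1 CPM in control Müller glia-like cells, a ratio of 0.893 (95% interval 0.702 to 1.14), but a 3' read may lie outside the deleted exon and does not check the deletion. With 1 library per group there is no replicate check and no test: every interval given covers counting error only.

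Stretches just before a RefSeq start site of 5 of these genes are shown because several hold a sequence that factors of the Jun, Atf and Creb families recognise. RefSeq promoter entries of build GRCm38.p6 were matched for 7 of the 10 genes (Fos, Fosb, Fosl2, Jun, Junb, Jund and Atf3), and 250 bases before each start site were searched on both strands. Capitals mark the core TGACG, or TGACNTCA in Jun, and each line runs 5′ to 3′ on the gene's own strand. The Fos stretch is chr12:85473770-85473889 on the plus strand. The stretches of Fosb (chr7:19310052-19310165), Jun (chr4:95052223-95052342), Junb (chr8:84978749-84978868) and Atf3 (chr1:191183334-191183453) are on the minus strand.
Fos: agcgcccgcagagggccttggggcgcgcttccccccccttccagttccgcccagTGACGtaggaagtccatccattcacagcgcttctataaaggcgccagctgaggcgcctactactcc
Fosb: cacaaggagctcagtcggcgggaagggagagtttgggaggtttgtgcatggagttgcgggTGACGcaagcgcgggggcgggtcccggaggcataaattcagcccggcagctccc
Jun: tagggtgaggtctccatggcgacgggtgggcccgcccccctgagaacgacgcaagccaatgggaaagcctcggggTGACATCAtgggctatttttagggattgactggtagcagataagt
Junb: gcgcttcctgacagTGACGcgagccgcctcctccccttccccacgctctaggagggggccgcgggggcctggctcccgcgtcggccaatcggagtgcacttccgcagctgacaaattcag
Atf3: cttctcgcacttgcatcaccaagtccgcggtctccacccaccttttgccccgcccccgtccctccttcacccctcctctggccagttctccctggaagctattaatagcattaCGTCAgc

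The core TGACG was present in 4 of the 7 promoters, and 17.9% of 27025 promoters of the same length hold it. In Fos it stands at positions -66 to -62 before the start site (with another copy at -129 to -125), in Fosb at -60 to -56, and in Junb at -106 to -102. In Atf3, whose RefSeq start site lies inside the span GENCODE gives the gene (chr1:191170296-191218039), it is on the opposite strand at -7 to -3. TGACNTCA, which overlaps TGACG where the free base is G, was found in Jun alone of the 7, at -45 to -38, and in 7.59% of all promoters. The AP-1 sequence TGANTCA (6.87% of all promoters) and the full element TGACGTCA (1.62%) had 0 recorded matches in the stretches searched. The CArG box of serum response factor (1.40%) had 0 recorded matches there too. Bases further upstream were not searched, nor were Fosl1, Egr1 and Ier2, so absence from these genes is not shown. A match to the NF-kB consensus, the sequence bound by the factor that LPS signalling activates, was found in Fos, Fosb and Fosl2, against 3.75% of all promoters. The matches describe these letters and are no sign of binding.

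Among the 10 named classes with at least 20 cells in each library, Müller glia-like cells had the highest level of 8 of the 10 genes in both libraries, and endothelial-like cells came next for each of these 8. Levels are CPM of the UMIs summed over a class in a library. The 3 knockout and 13 control pericyte-like cells and the 2 and 18 T and NK-like cells are outside this order. Pericyte-like cells stood above Müller glia-like cells in both libraries for Fosb (3187 and 1431 CPM), Egr1 (3704 and 2900 CPM) and Junb (4049 and 3486 CPM), and T and NK-like cells had 176 and 212 CPM of Fosl2. Fos, the founding Fos protein, reached 4511 CPM in knockout and 5166 CPM in control Müller glia-like cells, against 3088 and 3414 CPM in endothelial-like cells and 2631 and 2013 CPM in amacrine-like cells. Its lowest values were those of horizontal-like cells, at 346 and 163 CPM. Jun, the main partner of Fos, dropped more steeply along the same order: 3165 and 3932 CPM in Müller glia-like cells, 1408 and 1523 CPM in endothelial-like cells, and at most 474 and 453 CPM in the other 8 classes compared, both in retinal ganglion-like cells.

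Fosl1 (chr19:5447547-5455946 in GENCODE, mm10), which encodes Fra-1 and is itself a known target of AP-1, was the most unevenly distributed of the 10. It had 281 CPM in knockout and 155 CPM in control Müller glia-like cells, 113 and 52.7 CPM in endothelial-like cells, and 55.2 and 45.2 CPM in neutrophil-like cells. In neurons and photoreceptors it did not exceed 3.88 CPM in the knockout library or 2.69 CPM in the control library, and its counting intervals there overlapped from class to class. Fosl2, which encodes Fra-2, was ordered differently. Its highest level among the 10 classes was in neutrophil-like cells, with 209 CPM in knockout and 165 CPM in control cells. Müller glia-like cells, at 123 and 84.2 CPM, stood below these, the endothelial-like and the monocyte and macrophage-like cells in both libraries. Counting intervals of the neutrophil-like and the monocyte and macrophage-like cells overlapped in the knockout library, and those of the endothelial-like and the monocyte and macrophage-like cells overlapped in the control library.

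Junb, a Jun protein with weaker activating power, was highest among the 10 classes in endothelial-like cells at 2306 CPM in the knockout and 2388 CPM in the control library. Neutrophil-like cells followed with 1804 and 2197 CPM and Müller glia-like cells with 1766 and 2084 CPM. The counting intervals of the neutrophil-like and Müller glia-like cells overlapped in the knockout library and not in the control library. Jund, the Jun gene that many resting cells keep on, was the most even of the family. Its intervals in Müller glia-like and endothelial-like cells overlapped in the knockout library. It ran between 1341 CPM in Müller glia-like and 250 CPM in monocyte and macrophage-like cells of the knockout library, and between 1716 CPM in Müller glia-like and 180.4 CPM in rod-like cells of the control library.

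Atf3, a stress-induced relative, had 1479.8 CPM in knockout and 1122 CPM in control Müller glia-like cells, against 495 and 565 CPM in endothelial-like cells. Amacrine-like cells were lowest, at 8.56 and 9.99 CPM, although the same cells came next after endothelial-like cells for Fos. Egr1, a zinc-finger factor that is not part of AP-1, followed the order of Fos at the top, with 2826 and 2525 CPM in Müller glia-like cells, 1736 and 1718 CPM in endothelial-like cells and 1203 and 1052 CPM in amacrine-like cells. Ier2, an early gene encoding a small nuclear protein, had 1248 and 1592 CPM in Müller glia-like cells. Its next levels were in endothelial-like cells, at 785 and 741 CPM, and in neutrophil-like cells, at 380.0 and 420 CPM. Free RNA in droplets adds to all classes and was not removed.

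**Figure D1:**
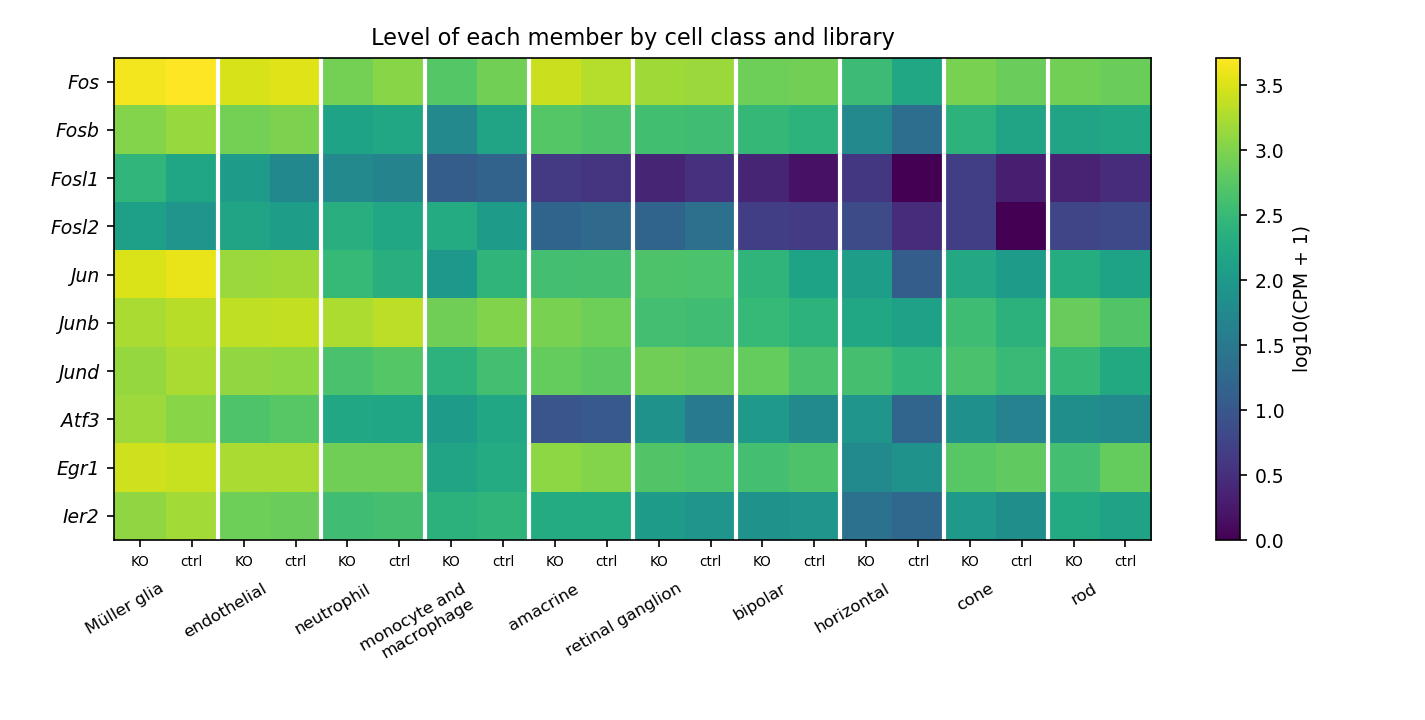
Level of each of the 10 genes as log10 of CPM plus 1 (colour), with genes in rows and cell classes in columns, the knockout library (KO) left of the control library (ctrl) in each class. The Müller glia-like pair is brightest for 8 genes, the Fosl1 row is dark in the neurons and photoreceptors, and the Fosl2 row is brightest in the neutrophil-like pair.

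Because a UMI stands for 1 mRNA 3' end whatever the gene's length, the make-up of each family can be given as shares of its UMIs, with capture taken as equal between genes. Within the Fos family, Fos made up 75.4% of the UMIs of knockout and 76.1% of those of control Müller glia-like cells. Fosb made up 17.8% and 20.4%, Fosl1 4.70% and 2.29%, and Fosl2 2.06% and 1.24%. Fosl2 had a larger part in the blood-derived cells: it held 16.6% of the family's UMIs in knockout and 10.9% in control neutrophil-like cells, and 24.4% and 9.96% in monocyte and macrophage-like cells. Fosl1 held 4.38% and 3.0% in neutrophil-like cells, 1.42% and 1.27% in monocyte and macrophage-like cells and 2.68% and 1.16% in endothelial-like cells.

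The split of the Jun family differed from class to class, also among the neurons. In Müller glia-like cells Jun made up 50.5% of the UMIs in the knockout and 50.9% in the control library, Junb 28.2% and 26.9%, and Jund 21.4% and 22.2%, so that both libraries had nearly the same split. In neutrophil-like cells Junb made up 70.7% and 74.5%. It was also the largest in rod-like cells, with 59.2% and 61.0%, and in amacrine-like cells, with 46.2% and 43.7%. In bipolar-like cells Jund was the largest, with 54.9% and 53.1%, and in horizontal-like cells it held 59.3% and 67.0%.

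**Figure D2:**
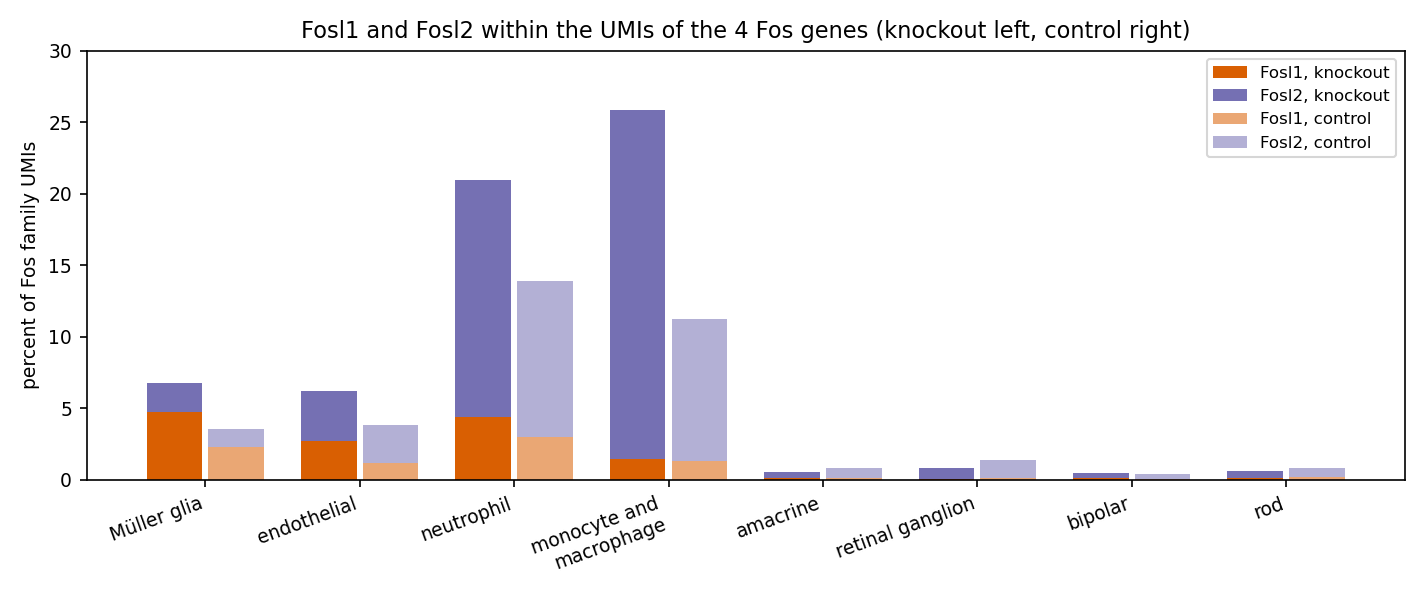
Share of the UMIs of the 4 Fos genes (y axis, percent) that came from Fosl1 (orange) and Fosl2 (purple) in 8 cell classes (x axis), with the knockout library as the left, darker bar and the control library as the right, paler bar. The knockout bar is the taller in the Müller glia-like, endothelial-like, neutrophil-like and monocyte and macrophage-like cells, and bars of the amacrine-like, retinal ganglion-like, bipolar-like and rod-like cells stay near 0.

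Between the libraries, Müller glia-like cells are the cells that the Cre driver is aimed at. Fosl1 was higher in the knockout library, Fosl2, Atf3 and Egr1 were higher by smaller factors, and the summed levels of Fos, Fosb, Ier2 and all 3 Jun genes were somewhat lower. Fosl1 alone passed the 1.5-fold bound used throughout: 1 of 10 genes was at least 1.5-fold higher, beside 3.87% of the 10248 genes with at least 100 UMIs over both libraries in this class. No gene of the 10 was at least 1.5-fold lower, beside 15.4% of those genes. At a 2-fold bound the counts were 0 higher and 0 lower, beside 1.33% and 4.64%. Their median log2 ratio of knockout over control was -0.22, beside -0.14 over all those genes. The log2 ratios of the 6 genes with lower summed levels ran between -0.38 for Fosb and -0.20 for Fos.

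Among the Fos genes, Fosl1 had 3108 UMIs in the knockout and 829 UMIs in the control library, and its ratio was 1.81 (95% interval 1.68 to 1.96). Fosl2 had a ratio of 1.46 (1.31 to 1.63), Fos of 0.873 (0.860 to 0.886) and Fosb of 0.770 (0.748 to 0.792). The Fra genes thus stood above 1 and the other Fos genes below it. Among the Jun genes the ratio was 0.805 (0.791 to 0.819) for Jun, 0.847 (0.828 to 0.868) for Junb and 0.782 (0.761 to 0.802) for Jund. The ratios of the 3 Jun genes lay close together. Atf3 had a ratio of 1.32 (1.28 to 1.36), Egr1 of 1.12 (1.097 to 1.14) and Ier2 of 0.784 (0.763 to 0.805).

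The directions of Fosl1, Fosl2 and Atf3 held under the 12 alternatives summarised here, among them subclusters 0, 1 and 2 (described below), each taken without thinning. Those of the genes below 1 did not all hold: with classes called cell by cell from markers, Fos (1.03), Jun (1.04), Junb (1.02) and Ier2 (1.02) stood just above 1, and with the mean of per-cell CPM so did Fos (1.07) and Junb (1.05). Fos was also above 1 (1.01) with median-of-ratios scaling. The ratio of Atf3 was 1.53 with that scaling, 1.67 with the mean of per-cell CPM, and 1.45 with TMM scaling. Thinning within subclusters 0, 1 and 2 was not among the 12. The thinned ratio of Fosl1 was 0.705 in subcluster 0, and above 1 in subclusters 1 (1.63) and 2 (4.98). That of Fosl2 was 1.15 in subcluster 0, 0.919 in subcluster 1 and 0.356 in subcluster 2. In subcluster 2 both genes were under the minimum for a measured gene. The thinned ratio of Atf3 stayed above 1 in each. Rod markers summed to 415 CPM in knockout and 1108 CPM in control Müller glia-like cells, neutrophil markers to 87.3 and 292 CPM, erythroid markers to 1015 and 6.94 CPM, and the Müller markers themselves to 5734 and 8229 CPM. Their part in these ratios was not tested.

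**Figure D3:**
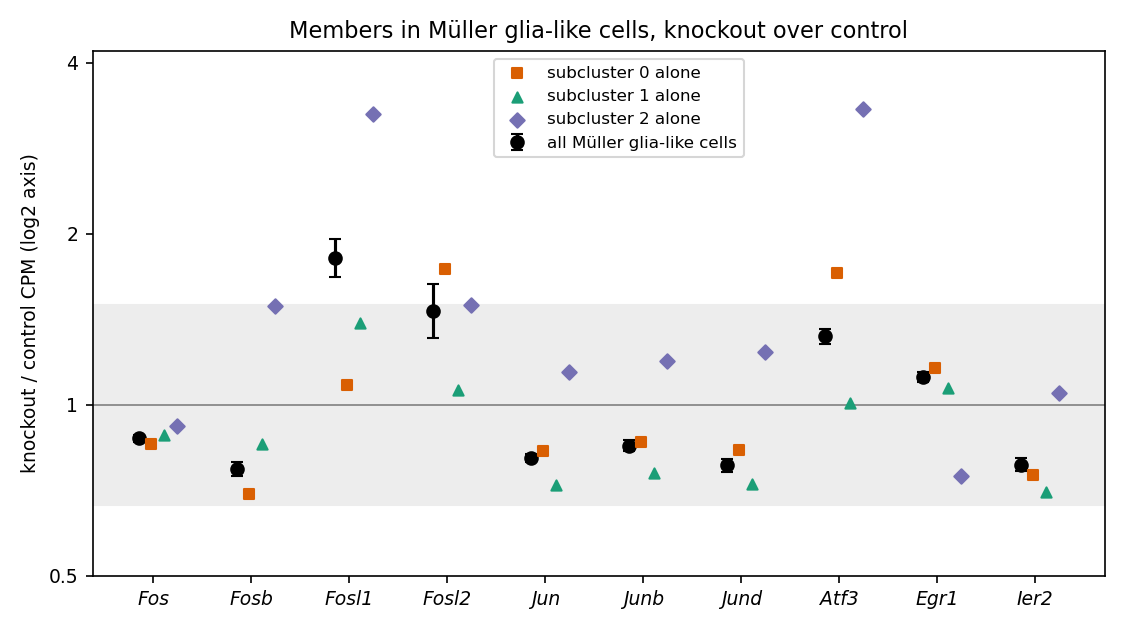
Ratio of knockout over control CPM in Müller glia-like cells (y axis, log2 scale) for each of the 10 genes (x axis), as black circles with 95% counting intervals for all such cells and as coloured symbols for 3 subclusters alone. The grey band marks ratios within 1.5-fold of 1, and the black circle of Fosl1 (1.81) is the only black circle outside it.

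In shares of cells, more of the knockout Müller glia-like cells had each of the 10 genes. Fosl1 had a UMI in 82.5% of knockout cells (exact 95% interval 79.1 to 85.6) and in 43.3% of control cells (38.1 to 48.6). These cells differ in depth, with medians of 20084 UMIs in the knockout and 14047 UMIs in the control library, so each cell was also thinned to 2000 UMIs, leaving out 45 knockout and 60 control cells that had fewer. After thinning the Fosl1 shares were 39.7% of knockout and 18.7% of control cells. Within subcluster 0 the thinned shares were close, at 44.9% of knockout and 43.9% of control cells. They were 36.4% and 24.1% in subcluster 1, and 15.6% of 45 and 3.1% of 32 cells in subcluster 2. The part of the unlike subcluster make-up of the libraries in the class shares was not tested. In rod-like cells the unthinned shares were 0.212% and 0.254%, at medians of 1046 and 1117 UMIs, depths too far below those of Müller glia-like cells to set a background for them. In bipolar-like cells, with medians of 8414 and 7822 UMIs, they were 1.20% and 0.447%.

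Atf3 was found in 90.0% of knockout and 61.9% of control Müller glia-like cells, or 76.7% and 52.7% after thinning. Fos, the most widely detected, had a UMI in 97.7% and 89.4% of cells, or 95.7% and 88.0% after thinning, while its summed level was lower in the knockout library. The 5 highest cells held 3.86% of the UMIs of Fosl1 in the knockout library, against 16.9% in the control library. These shares have unlike bases, 561 cells and 3108 UMIs in the knockout library against 360 cells and 829 UMIs in the control library.

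Counted cell by cell after thinning, a knockout Müller glia-like cell had a median of 8 of the 10 genes detected (quartiles 7 and 9, 516 cells) and a control cell a median of 7 (quartiles 5 and 8, 300 cells). At least 7 genes were detected in 81.8% of knockout and 63.0% of control cells. The UMIs of the 10 genes together had similar medians, 36 per thinned knockout cell and 34.5 per thinned control cell, but the control cells were spread more widely, with quartiles of 11.75 and 54, against 25 and 44.25 in the knockout cells. In the other classes thinned in this way the median was 4 genes in amacrine-like and neutrophil-like cells and 3 in rod-like cells of both libraries. The rod-like values come from the few deep cells, 131 of 472 in the knockout and 255 of 3539 in the control library. Bipolar-like cells had a median of 3 in the knockout and 2 in the control library.

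**Figure D4:**
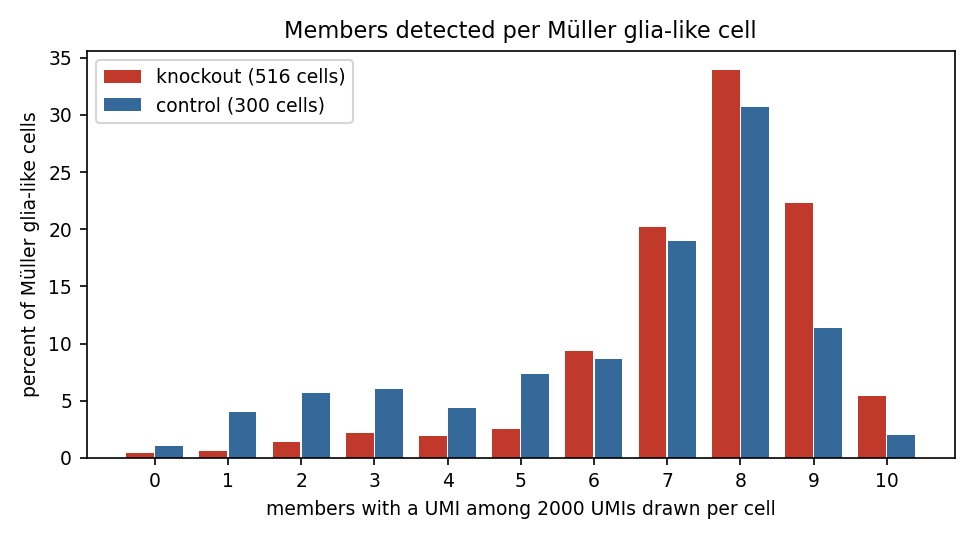
Percent of Müller glia-like cells (y axis) by how many of the 10 genes had a UMI among 2000 UMIs drawn per cell (x axis), in the knockout library (red, left bars) and the control library (blue, right bars). Both peak at 8 genes, and the control library has the larger share of cells with 1 to 5 genes.

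Different clusters held most of the Müller glia-like cells in the libraries, and clustering these cells again gave 5 subclusters. Subcluster 0 held 342 knockout and 41 control cells, subcluster 1 held 130 and 79, and subcluster 2 held 79 and 77. Subcluster 3 had 9 knockout and 81 control cells, and subcluster 4 had 1 and 82, so these 2 are nearly control-only. Subcluster 4 of the control library had 4438 CPM of Glul, the glutamine synthetase of Müller glia, and 1038 CPM of Lcn2, an acute-phase gene of reactive glia, whereas subcluster 1 had 699.6 CPM of Glul in knockout and 798 CPM in control cells and 40709 and 45234 CPM of Lcn2. The 10 genes were not kept out of the clustering, so their differences between subclusters are a description.

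Within subcluster 0 the ratio of Fosl1 was 1.08 (0.957 to 1.23), with 325 CPM in knockout and 299.7 CPM in control cells, and after thinning it was 0.705 on 208 and 36 UMIs. Within subcluster 1 it was 1.39 (1.23 to 1.58), with 218 and 157 CPM, or 1.63 after thinning. Within subcluster 2, whose cells are shallow, it was 3.25 (1.44 to 8.63) on 38 knockout and 7 control UMIs. The intervals of subclusters 0 and 1 lie below the ratio over all Müller glia-like cells (1.81), and the wide interval of subcluster 2 contains it. The ratio over the class was 1.51 without subclusters 3 and 4, a setting chosen after seeing the data. In the cells left out by that setting, control Fosl1 stood at 40.2 CPM in subcluster 3 and 126 CPM in subcluster 4.

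Atf3 had a ratio of 1.70 (1.597 to 1.82) in subcluster 0, with 1785 CPM in knockout and 1047 CPM in control cells. In subcluster 1 it had 985 and 977 CPM and a ratio of 1.01 (0.955 to 1.06), and in subcluster 2 it had 685 and 207 CPM and a ratio of 3.31 (2.42 to 4.62). In that subcluster the 5 highest cells held 60.8% of the Atf3 UMIs of the knockout and 72.3% of those of the control library, and after thinning the ratio was 1.38. After thinning it was 1.56 in subcluster 0 and 1.08 in subcluster 1. Fosl2 had ratios of 1.73 in subcluster 0 and 1.06 in subcluster 1, which were 1.15 and 0.919 after thinning. In subcluster 2 Fosl2 had 30 knockout and 12 control UMIs, under the minimum for a measured gene. Fos stayed below 1 in each, at 0.852, 0.885 and 0.918. Jun, Junb, Jund and Ier2 were below 1 in subclusters 0 and 1, at 0.702 to 0.859, and above 1 in subcluster 2, at 1.05 to 1.24, or 0.904 to 1.09 after thinning. Fosb, at 0.696 and 0.851 in subclusters 0 and 1, was at 1.495 (1.19 to 1.90) in subcluster 2, and Egr1, at 1.16 and 1.07, was at 0.749 (0.645 to 0.872) there. The highest Fos and Jun levels of any Müller glia-like cells of the control library were in subcluster 4, with 7355 CPM of Fos, 6278 CPM of Jun and 2078 CPM of Atf3. The lowest control levels of Fos (1785 CPM) and Atf3 (86.9 CPM) were in subcluster 3, and those of Jun (1332 CPM) and Fosl1 (30.8 CPM) in subcluster 2.

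Lists of related genes were counted in the same Müller glia-like cells. They were drawn up with earlier results of these data known, and their counts stand beside the shares of 3.87% higher and 15.4% lower for all genes. Of 40 other early response genes 37 were measured with at least 100 UMIs. Of these, 9 were at least 1.5-fold higher and 6 at least 1.5-fold lower, with a median log2 ratio of 0.19. Gadd45b, a stress gene that feeds into kinase signalling, had 946 CPM in knockout and 385 CPM in control cells, a ratio of 2.46. Myc, the growth regulator, had 98.8 and 41.2 CPM, a ratio of 2.40. Socs3, a brake on cytokine signalling through Stat3, had 61.6 and 147 CPM, a ratio of 0.419, and Ccn2, a matrix-associated growth factor, had a ratio of 0.553. The most abundant of the list were Ier3, at 3335 and 2269 CPM, and Btg2, at 1793 and 1821 CPM.

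Of 23 basic leucine zipper relatives 20 were measured. None was at least 1.5-fold higher and 2 were lower, Maf at 0.554 among them, with a median log2 ratio of 0.10. Bach1 (1.45) and Atf5 (1.40) had the largest ratios, and Cebpd (1.01) and Cebpb (1.29), factors of the acute-phase response, had the highest levels. Of 29 kinases, phosphatases and cofactors upstream of AP-1, all measured, 1 was at least 1.5-fold higher and 2 were lower, with a median log2 ratio of -0.11. Map2k3, a kinase of the p38 pathway, had a ratio of 1.52, and its relative Map2k6 had a ratio of 0.423 on 93 knockout and 106 control UMIs. Mapk9, a Jun kinase, had a ratio of 0.537, and the phosphatases Dusp10 and Dusp16 had ratios of 1.49 and 0.675.

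Of 26 genes described as AP-1 targets 22 were measured: 10 were at least 1.5-fold higher in the knockout library and 3 were lower, with a median log2 ratio of 0.53. Mmp3, the protease stromelysin, had 250 UMIs in knockout and 8 UMIs in control cells, or 22.6 and 1.499 CPM, a ratio of 15.1 (7.54 to 35.3). Il11, a cytokine of the Il6 family, had 34.6 and 7.68 CPM, a ratio of 4.51 (3.26 to 6.38). Il6 itself had 42 and 59 UMIs and a ratio of 0.344, and the growth factor gene Ereg had a ratio of 0.589. The most abundant were Timp1, an inhibitor of matrix proteases, at 6483 and 4818 CPM, and the filament gene Vim, at 1629 and 1573 CPM. All 14 heat shock genes, which tissue dissociation is known to induce, were within 1.5-fold, with a median log2 ratio of 0.084. Hspa1b (1.35) and Bag3 (1.34) had the largest of their ratios and Dnajb4 (0.740) and Hspd1 (0.870) the smallest, with Hsp90ab1 and Hspa8, the most abundant, at 1.06 each.

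In bipolar-like cells, Jun, Jund and Atf3 were at least 1.5-fold higher in the knockout library and no gene was lower, 3 and 0 of the 8 measured there, beside 2.58% of all measured genes higher and 2.82% lower. Jun had 265 CPM in the 1087 knockout cells and 143 CPM in the 671 control cells, a ratio of 1.85 (1.71 to 2.01). Jund had 693 and 445 CPM, a ratio of 1.56 (1.49 to 1.63), and Atf3 had 101 and 57.0 CPM, a ratio of 1.77 (1.56 to 2.02). All 3 were above 1 in each of the 4 bipolar-like clusters: Jun ran between 1.42 and 2.40, Jund between 1.32 and 1.64, and Atf3 between 1.55 and 2.22. Fos (0.948) and Egr1 (0.846) were near or below 1 in the same cells. Rod markers summed to 672 CPM in knockout and 1747 CPM in control bipolar-like cells, Müller markers to 253 and 220 CPM and erythroid markers to 1653 and 1195 CPM. Their part in the ratios was not tested.

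Amacrine-like cells differed less. None of the 9 genes measured there was at least 1.5-fold higher or lower, beside 2.59% and 2.36% of all genes, and Fos had the largest ratio at 1.31 (1.28 to 1.34), with 2631 CPM in knockout and 2013 CPM in control cells. Its ratio was 1.49 in cluster 2, 1.27 in cluster 11 and 0.759 (0.691 to 0.834) in cluster 18. Jun, at 0.980 over the class, was 1.18 in cluster 2, 0.604 in cluster 11 and 0.372 in cluster 18. In rod-like cells 1 of 8 genes was at least 1.5-fold higher and 1 was lower, beside 10.7% and 17.1% of all genes. Jund had 292 CPM in knockout and 180.4 CPM in control rod-like cells, a ratio of 1.62 (1.39 to 1.87), and Egr1 had 405 and 682 CPM, a ratio of 0.593 (0.527 to 0.665). Erythroid markers summed to 13996 CPM in knockout and 55.5 CPM in control rod-like cells, and the median share of mitochondrial UMIs was 4.32% and 1.40%. With the mean of per-cell CPM and with classes called cell by cell no gene was at least 1.5-fold lower in rod-like cells. Of 11 heat shock genes measured in rod-like cells 5 were at least 1.5-fold higher, with a median log2 ratio of 0.58, and the part of these genes, of the erythroid markers and of the mitochondrial share in the ratios was not tested.

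The remaining neurons rest on fewer cells. In the 94 knockout and 114 control cone-like cells, Fosb (1.70), Jun (1.61) and Junb (1.51) were at least 1.5-fold higher and none was lower, 3 and 0 of 7, beside 1.88% and 3.25% of all genes. With each cell thinned to 2000 UMIs these ratios were 2.18, 1.71 and 1.43. In the 39 and 31 horizontal-like cells the counts were 3 and 0 of 6, beside 3.3% and 1.71%. Jun had 154 UMIs there in the knockout and 12 UMIs in the control library, a ratio of 10.1 (5.59 to 19.9), but 1 knockout cell held 56.5% of its UMIs and 5 cells held 84.4%. Atf3 had 111 and 16 UMIs, a ratio of 5.43 (3.20 to 9.84), and Fos had a ratio of 2.13 (1.78 to 2.56). After thinning, the ratio was 2.21 for Jun and 1.41 for Fos, and Atf3 had 0 UMIs left in the control cells. Only a few UMIs of Jun were left in either library, so its thinned ratio says little. Neutrophil markers summed to 216 CPM in knockout and 50.3 CPM in control horizontal-like cells, erythroid markers to 46.2 and 3.87 CPM and rod markers to 98.5 and 342 CPM, and their part was not tested. In the 80 and 39 retinal ganglion-like cells Atf3, known as a gene of axon injury in these neurons, had 77.7 and 31.8 CPM, a ratio of 2.45 (1.74 to 3.52). A single knockout cell held 32.3% of these UMIs, and after thinning the ratio was 0.987. It was the only gene of 8 at least 1.5-fold higher and none was lower, beside 5.74% and 3.47%.

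**Figure D5:**
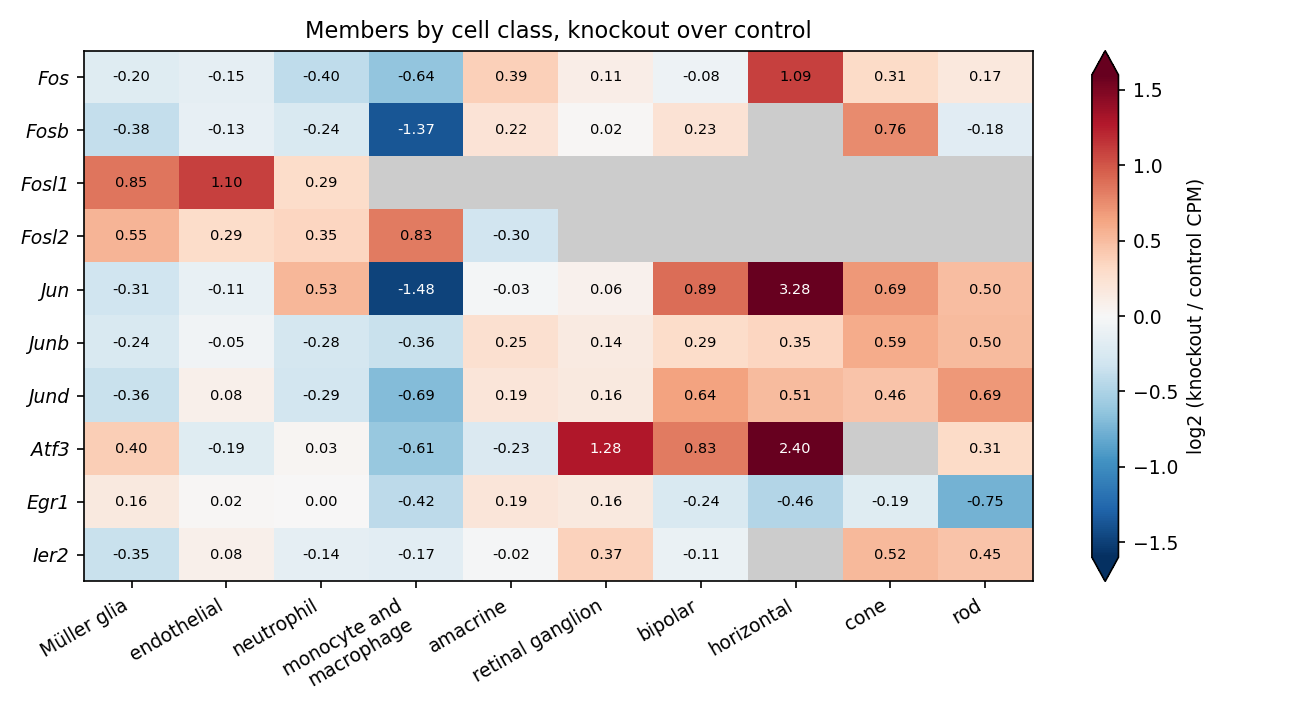
Log2 ratio of knockout over control CPM for each of the 10 genes (rows) in 10 cell classes (columns), printed in each cell and shown as colour, with red for higher in the knockout library and grey where a gene had under 100 UMIs over both libraries. Monocyte and macrophage-like cells are mostly blue, horizontal-like cells hold the darkest red for Jun (3.28), and Fosl1 is coloured only in Müller glia-like, endothelial-like and neutrophil-like cells.

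Among vessel and blood cells, Fosl1 was the 1 of 10 genes at least 1.5-fold higher in the 50 knockout than in the 55 control endothelial-like cells, and none was lower, beside 2.46% and 5.68% of all genes. It had 113 CPM in knockout and 52.7 CPM in control cells, a ratio of 2.15 (1.69 to 2.75), while the other 9 genes ran between 0.875 and 1.23. After thinning the ratio was 1.67 for Fosl1 and 2.73 for Fosl2, both on few UMIs. A UMI of Fosl1 was found in 84.0% of knockout and 45.5% of control endothelial-like cells, whose median depths were 41180 and 25255 UMIs. After thinning it was found in 12.5% of 48 knockout and 6.00% of 50 control cells. Neutrophil markers summed to 67.6 CPM in knockout and 2253 CPM in control endothelial-like cells and Müller markers to 342 and 428 CPM. Their part was not tested. In the 164 knockout and 225 control neutrophil-like cells none of the 10 genes passed the bound in either direction, beside 3.54% higher and 15.5% lower. Jun had the largest ratio there, 1.44 (1.25 to 1.66), and Fos the smallest, 0.756 (0.702 to 0.813).

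Monocyte and macrophage-like cells were the class in which most of the 10 genes were lower in the knockout library. With 51 knockout and 94 control cells, 5 of 9 measured genes were at least 1.5-fold lower and 1 was higher, beside 6.27% and 3.42% of all genes. Jun had 96.1 CPM in knockout and 269 CPM in control cells, a ratio of 0.357 (0.289 to 0.438). Fosb had 55.4 and 144 CPM, a ratio of 0.384 (0.289 to 0.503), and Fos, Jund and Atf3 had ratios of 0.643, 0.619 and 0.655. Fosl2 ran the other way, with 194 and 109 CPM and a ratio of 1.77 (1.47 to 2.13). After thinning, Jun and Jund were the genes still past the bound on the lower side, and Egr1, at 0.745 over all UMIs, was at 1.55. In these cells neutrophil markers summed to 5880 CPM in the knockout and 2032 CPM in the control library, Müller markers to 327 and 528 CPM, and erythroid markers to 2436 and 6.99 CPM. Their part in the ratios was not tested.

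Likeness of pattern was measured as Pearson's r of log2(CPM + 10) over the 17 class and library sums with at least 50 cells, which share libraries and depth, and is given as a description. Fos and Fosb (0.95), Fosl1 and Ier2 (0.94), and Fos and Jun (0.94) were the most alike of the pairs among the 10 genes. Fosl2 had the lowest values, with r of 0.14 to Fosb, 0.21 to Egr1 and 0.34 to Fos, and was closer to Junb (0.87), Ier2 (0.79) and Fosl1 (0.78). Outside the 10, the genes most like Fosl1 were Maff (0.98), Vamp5 (0.96) and Ifrd1 (0.95), and Maff also led for Atf3 (0.93). Pard3b (0.96) was most like Fos, Fgfr1 (0.96) most like Jun, Tbrg1 (0.96) most like Jund and Itpr2 (0.94) most like Junb. The genes most like Fosl2 were Sdcbp, Sri and Actg1 (0.98 each).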

How the data were processed

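The authors deposited raw UMI counts per gene and barcode; per the submitters' processing notes these were made with Cell Ranger 6.0.0 on mm10, and Seurat 5.2.1 was also named. Per the labels' protocols, papain-dissociated retinas went into 10x Genomics 3' libraries. No source used here names the annotation release. The stated filter kept cells under 25% mitochondrial UMIs with 500 genes or more. They were clustered with Seurat 5.3.0 in R 4.3.3 (2000 variable genes, 11 principal components, resolution 1, seed 1), the non-neuronal clusters again in the same way, and Müller glia-like cells at resolution 0.4. Clusters were named from 21 marker lists: at least 3 markers with 10 UMIs each in at least 10% of the cluster's cells, a limit set after seeing the data, a score of at least 1 and a lead of at least 1, with 5 CPM added. Of 33 clusters 8 stayed unnamed. Names are rebuilt and may differ from the study's.

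UMIs were summed by class and library and given as CPM of the deposited counts, with exact Poisson intervals (95%). Ratios have exact conditional binomial intervals and shares exact Clopper-Pearson intervals. Coverage was checked for the ratio intervals only, on simulated Poisson counts. These follow the error the intervals assume, so the check says nothing of UMIs clumped in single cells. A gene was measured with at least 100 UMIs over both libraries, and log2 ratios had 0.5 added to both counts. The minimum was applied before thinning, so thinned ratios of small classes can rest on fewer UMIs. A count test across samples was not run because each group is 1 library. Scrublet in scanpy 1.11.5 called 0 cells in either library and so did not work, and no doublet was removed. TMM factors came from edgeR 4.0.16. The named genes are the 10 members and, from each of 5 lists, the 2 largest and 2 smallest ratios and the 2 highest CPM. Members and lists were chosen with earlier results of these data known. Promoter sequences are RefSeq's.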

Additional observations from a re-analysis of the deposited data

Results flagged for a closer look

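Ratios of knockout over control passed the 1.5-fold bound in opposite directions in different classes for 5 of the 10 genes, beside 3.82% of the 11743 genes measured in at least 2 of the 10 classes. Among genes measured in at least 8 classes it was 5 of 8, beside 4.85% of 3402. With 1 library per group these differences between classes were not tested. Jun was higher in the knockout library in horizontal-like (10.1), bipolar-like (1.85) and cone-like cells (1.61) and lower in monocyte and macrophage-like cells (0.357). Atf3 was higher in horizontal-like (5.43), retinal ganglion-like (2.45) and bipolar-like cells (1.77) and lower in monocyte and macrophage-like cells (0.655). Jund was higher in rod-like (1.62) and bipolar-like cells (1.56) and lower in monocyte and macrophage-like cells (0.619). Fos was higher in horizontal-like cells (2.13) and lower in monocyte and macrophage-like cells (0.643). Fosb was higher in cone-like cells (1.70) and lower in monocyte and macrophage-like cells (0.384). After each cell was thinned to 2000 UMIs, Jun and Jund were past the bound both ways. So was Fosb, at 2.18 in cone-like and 0.608 in rod-like cells. Egr1 (1.55 in monocyte and macrophage-like, 0.366 in rod-like cells) and Fosl2 (2.73 in endothelial-like, 0.483 in amacrine-like cells) became so. The share of all genes was not computed after thinning. Fos was then at 1.41 in horizontal-like and 0.822 in monocyte and macrophage-like cells, Fosb at 0.698 and Atf3 at 0.93 in monocyte and macrophage-like cells, Atf3 at 0.987 in retinal ganglion-like cells, and Jund at 1.35 in rod-like cells, so these calls were lost.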

How the results depend on the processing

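No paired analysis was possible because each group is 1 library without a replicate number, and no replicate could be left out. In Müller glia-like cells the number of genes at least 1.5-fold higher, 1 as reported, was 2 with TMM scaling, without the 5 highest cells of each gene, in subcluster 0, in subcluster 2 and without subclusters 3 and 4. It was 3 with median-of-ratios scaling, with the mean of per-cell CPM and with classes called cell by cell, and 0 in subcluster 1 and at a 2-fold bound. The number lower was 0 under each of these settings. Genes were kept by the UMIs of the whole class, so the 2 of subcluster 2 include Fosl1 on 38 knockout and 7 control UMIs. The share of all genes past the bound was not computed under these settings, except at the 2-fold bound. The median log2 ratio, -0.22 as reported, was -0.081 with TMM scaling, -0.0050 with median-of-ratios scaling, 0.086 with the mean of per-cell CPM, -0.044 after thinning, 0.049 with classes called cell by cell, 0.28 in subcluster 2 and -0.13 without subclusters 3 and 4. With 0.5 added to both counts, the ratio of Fosl1 ran between 1.08 and 3.08 and that of Atf3 between 1.01 and 3.29. These ranges cover the 12 alternatives and leave out thinning within subclusters.

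In amacrine-like cells, with 0 genes higher and 0 lower as reported, 1 was lower after thinning, 2 were lower in cluster 11, and 1 was higher and 3 lower in cluster 18. Genes were kept here by the UMIs of the whole class before thinning. The gene lower in amacrine-like cells after thinning was Fosl2, which then had fewer than 100 UMIs. The lower counts of clusters 11 and 18 include Fosl2, and the higher count of cluster 18 is Atf3, each under 100 UMIs in that cluster. In bipolar-like cells, with 3 higher and 0 lower, 1 was lower in cluster 4 and 1 higher in cluster 12. In neutrophil-like cells, with 0 higher, 1 was higher with TMM scaling and 1 after thinning. In rod-like cells, with 1 higher and 1 lower, 4 were higher with TMM scaling, 3 higher and 0 lower with the mean of per-cell CPM and with classes called cell by cell, and 0 higher and 2 lower after thinning. Thinning kept 131 of 472 knockout and 255 of 3539 control rod-like cells. The share of all genes past the bound was not computed under any of the other settings in this paragraph. In monocyte and macrophage-like cells, with 1 higher and 5 lower, 2 were higher and 2 lower after thinning. Thinning also gave 2 higher in endothelial-like cells, against 1 as reported, 1 lower in horizontal-like cells, against 0, and 0 higher in retinal ganglion-like cells, against 1, where the log2 ratio of Atf3 became -0.13 with 0.5 added to both counts. Without the 5 highest cells of each gene, 2 were higher in retinal ganglion-like cells. The settings within neuron clusters, without subclusters 3 and 4, and for monocyte and macrophage-like, endothelial-like, cone-like, horizontal-like and retinal ganglion-like cells were chosen after seeing the data, and the causes of these changes were not tested. Of all Müller glia-like genes with at least 500 UMIs, 3.43% were higher and 8.46% lower. Depth limits what can be said of Fosl1 and Fosl2 in neurons, where sums are a few UMIs.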
